A study of Mus musculus with 6 samples.

Results

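The genes described here encode 8 adhesive and matricellular glycoproteins of the extracellular matrix: Fn1, Thbs1, Thbs2, Thbs3, Tnc, Postn, Sparc and Tgfbi. They were chosen by symbol, and each symbol matched 1 Ensembl ID, so they are 8 of the 37224 rows of the deposited table. Expression had been measured by RNA-seq in mouse embryonic fibroblasts (MEF, connective tissue cells grown from mouse embryos, labelled primary and of C57BL/6 background). There were 4 groups of 1 library each: Dot1L-/- cells with low-dose sodium arsenite, untreated Dot1L-/- cells, wild-type cells with low-dose sodium arsenite and untreated wild-type cells. Dot1L, the enzyme that the null label names, methylates histone H3 at lysine 79. Sodium arsenite is an inorganic arsenic salt, and the exposure lasted 24 h. Doses of 5 and 10 µM are named in the protocol and the sequenced one is not stated, and the labels do not say how the null cells were made or whether they are a single line. With 1 library per group no difference has a replicate check, and none was tested. A further 2 libraries, of the histone mark H3K27ac, were not analysed here.

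Fibronectin is assembled by cells into fibrils through integrins, and these fibrils carry collagen, growth factors and other glycoproteins. Thrombospondins, tenascin C, periostin, SPARC and TGFBI are called matricellular because they change how cells hold to the matrix more than they build it. Many of them are made by activated fibroblasts in wound repair and fibrosis, and several are targets of TGF-beta.

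Depth, recovered from the whole-read steps of the RPKM values (reads per kilobase of gene, scaled to library depth), was 11879632 reads in the null arsenite library, 64699847 in the null control, 10833103 in the wild-type arsenite library and 62972880 in the wild-type control. The controls were 5.45 and 5.81 times as deep as the arsenite libraries in null and wild-type cells. Dot1l itself was 3.17-fold lower (95% counting interval 3.07 to 3.26) in the null than in the wild-type control, and 4.61-fold lower (3.79 to 5.63) in the null with arsenite. Its RNA was thus not absent, at 9.59 RPKM in the null control against 30.4 in the wild-type control. With arsenite it stood at 1.24 RPKM in null cells against 5.71 in wild-type cells. Of 12 fibroblast markers 9 reached an RPKM of 1 in some library, among them Vim, Col1a1 and Pdgfrb, whereas Thy1 was listed at 0 in all 4 libraries and Fap and Lum had at most 1 and 6 reads in any. In the 9 marker lists of other cell types, 0 to 3 genes each reached that level. Other measures moved together with arsenite. RNAs without a poly(A) tail (7 of 8 listed were in the table) summed to 322 RPKM in the null arsenite library, 7.90 in the null control, 328 in the wild-type arsenite library and 5.20 in the wild-type control. Longer genes had lower arsenite values: the slope on gene length was −0.72 (null) and −0.70 (wild type) log2 units per doubling, over 11660 genes. Reads were also spread differently over genes, with a larger share in the most abundant ones with arsenite. The 75th percentile of RPKM among the genes compared below was 12.5 in the null arsenite library and 19.3 in the null control. It was 15.0 in the wild-type arsenite library and 21.3 in the wild-type control. The part of these library differences in the results below was not tested, and a value with the length trend removed is given beside the arsenite differences of the 8 genes and of the genes named from lists.

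Promoter windows, from 250 bases before to 50 bases after the annotated gene start, were found in RefSeq (GRCm38.p6) for 6 of the 8 genes. They were searched on both strands for the TATA box (TATAAA), the GC box (GGGCGG), the AP-1 site (TGANTCA), the TEAD site (GGAATG), the core of the antioxidant response element (TGACNNNGC, whose first letters can overlap an AP-1 site) and the CArG box of SRF. The windows of 4 genes are shown because their genes had different patterns: Thbs2 and Tnc were lower with arsenite in both genotypes, Tgfbi differed most between genotypes, and Sparc was the exception under arsenite. Thbs2 is at chr17:14694213-14694512, Tnc at chr4:64046966-64047265 and Sparc at chr11:55420031-55420330, all on the minus strand, and Tgfbi is at chr13:56609336-56609635 on the plus strand. Each is printed 5′ to 3′ along its gene, and capitals mark matches to any of the motifs.
Thbs2: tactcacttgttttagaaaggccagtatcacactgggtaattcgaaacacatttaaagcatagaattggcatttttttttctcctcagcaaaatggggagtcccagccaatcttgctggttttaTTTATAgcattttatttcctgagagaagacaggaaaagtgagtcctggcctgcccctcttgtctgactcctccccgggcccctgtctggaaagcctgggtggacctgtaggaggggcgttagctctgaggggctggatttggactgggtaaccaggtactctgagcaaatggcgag
Tnc: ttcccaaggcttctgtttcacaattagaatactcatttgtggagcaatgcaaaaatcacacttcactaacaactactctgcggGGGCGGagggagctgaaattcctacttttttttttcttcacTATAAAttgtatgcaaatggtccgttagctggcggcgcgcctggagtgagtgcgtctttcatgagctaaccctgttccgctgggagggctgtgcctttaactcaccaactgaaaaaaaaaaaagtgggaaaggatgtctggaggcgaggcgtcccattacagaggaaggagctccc
Tgfbi: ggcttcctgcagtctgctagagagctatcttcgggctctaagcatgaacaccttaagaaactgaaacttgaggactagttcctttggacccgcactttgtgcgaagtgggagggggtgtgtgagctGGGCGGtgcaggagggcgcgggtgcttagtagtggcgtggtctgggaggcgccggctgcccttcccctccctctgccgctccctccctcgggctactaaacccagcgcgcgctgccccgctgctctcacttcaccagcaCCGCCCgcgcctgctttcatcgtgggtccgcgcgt
Sparc: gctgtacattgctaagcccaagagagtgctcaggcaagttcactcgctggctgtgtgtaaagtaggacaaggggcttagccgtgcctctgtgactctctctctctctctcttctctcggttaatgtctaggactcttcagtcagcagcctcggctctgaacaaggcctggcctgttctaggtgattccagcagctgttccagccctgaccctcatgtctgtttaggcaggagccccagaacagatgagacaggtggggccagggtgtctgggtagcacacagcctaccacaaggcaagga
TATAAA was found in Thbs2 and Tnc, in both from −126 to −121 relative to the gene start, and in 13.6% of all 32851 mouse promoter windows. GGGCGG was found in Tnc, Tgfbi and Thbs3, and in 35.7% of all windows. The window of Thbs3, a gene also lower with arsenite in both genotypes, is not printed and held no TATAAA. Fn1 and Thbs1 had no window to search. The antioxidant core was found in Postn, and in 12.4% of all windows. No match to the AP-1 site (7.81% of all windows), the TEAD site (14.7%) or the CArG box (1.63%) was in any of the 6 windows, and none of the motifs was in that of Sparc. The windows were 63.3% G and C in Tgfbi, 55.3% in Sparc, 48.3% in Thbs2 and 47.3% in Tnc. A match describes letters in this window and no more.

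The level of these genes ran over a wide range, and its order was not the same with and without arsenite. Fn1 had the highest RPKM of the 8 in both controls and Sparc in both arsenite libraries. The level of Sparc divided by that of Fn1, in RPKM, was 5.46 in the null arsenite library and 0.105 in the null control, and 4.74 in the wild-type arsenite library and 0.353 in the wild-type control. The 8 genes together took 0.163% of the reads in the null arsenite library, 1.37% in the null control, 0.0924% in the wild-type arsenite library and 0.931% in the wild-type control. Postn was the lowest in every library. It was also the only one of the 8 that stayed under an RPKM of 1 in all of them, the minimum for entering the comparisons, so 7 of the 8 genes were counted in these. Within a library, neighbours in the order of levels had separate counting intervals with these exceptions: Tgfbi and Tnc in the null arsenite library, and Tnc and Thbs1 in the wild-type arsenite library. Counting intervals cover the counting of reads only, not variation between cultures, and reads without molecular identifiers are not independent molecules.

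**Figure D1:**
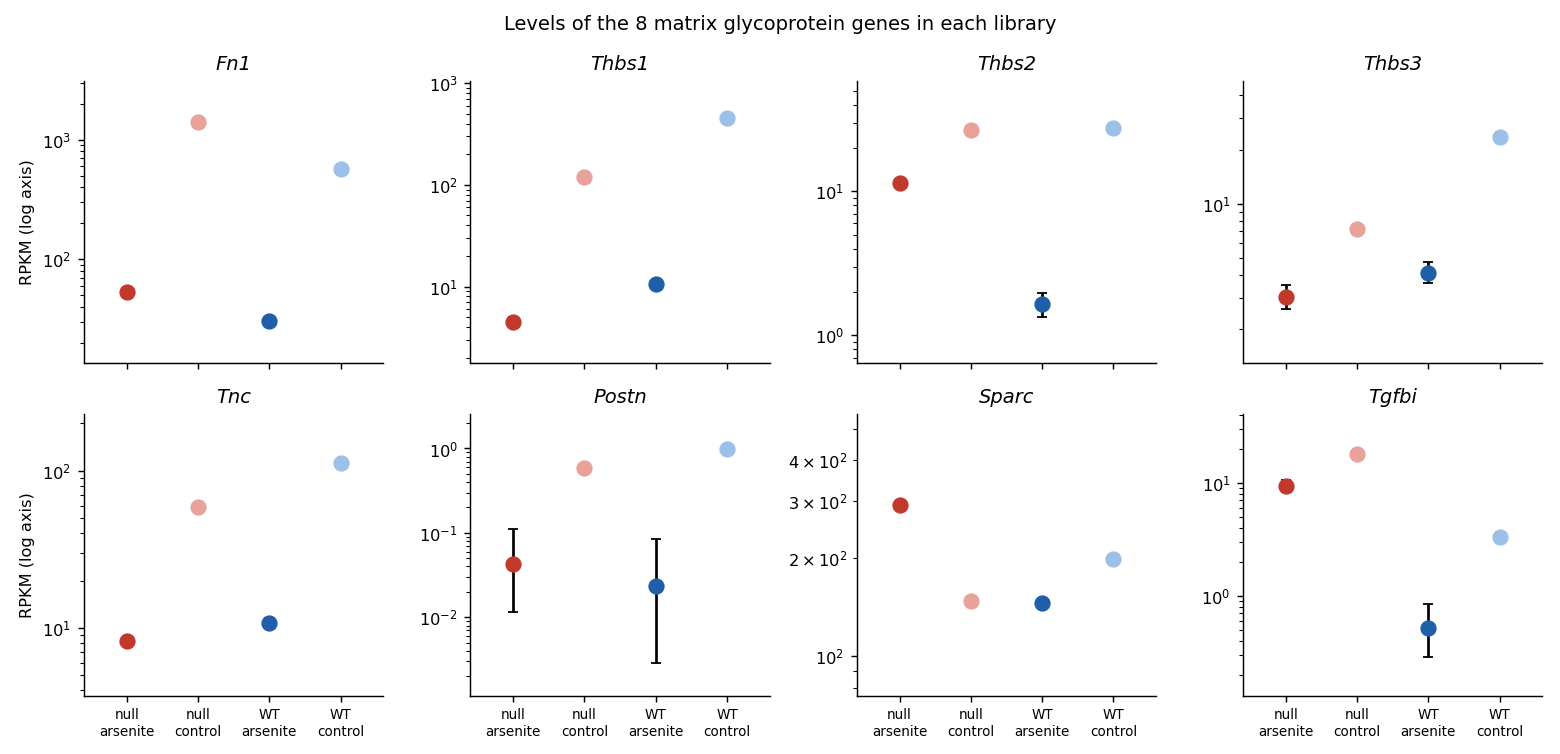
RPKM of each of the 8 genes (log axis, a scale of its own for each gene) in the 4 libraries, with 95% counting intervals as bars where they are wider than the point. Sparc alone is higher in the null arsenite library (292) than in the null control (148), and Fn1 and Tgfbi are higher in the null control than in the wild-type control.

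Arsenite was set against control within each genotype. A gene was counted as lower or higher where the log2 difference of (RPKM + 1) was at least 1 in size, a scale that understates differences of genes with low values. In null cells, 5 of the 8 genes were lower with arsenite (Fn1, Thbs1, Tnc, Thbs2 and Thbs3) and none was higher, where 37.1% of the 12588 genes compared were lower and 15.2% higher. In wild-type cells, 6 of the 8 were lower (the same 5 and Tgfbi) and none was higher, where 35.7% of genes were lower and 12.8% higher. The median log2 difference of the 7 genes past the minimum was −1.16 in null cells and −3.25 in wild-type cells, beside medians of −0.53 and −0.56 for all genes compared. In bulk RNA, fewer cells that make a transcript and less of it per cell cannot be told apart. Fibroblast markers moved too: in null cells 4 of 9 were lower with arsenite and 1 higher, with a median of −0.88, and in wild-type cells 7 of 9 were lower and 1 higher, with a median of −2.62. After removal of the length trend 1 was lower and 2 higher in null cells, and 6 lower and 1 higher in wild-type cells. The summed RPKM of the 12 listed was 12128 in the null arsenite library, 2305 in the null control, 4998 in the wild-type arsenite library and 2723 in the wild-type control. Most of both arsenite sums came from S100a4, at 10957, 949, 4191 and 688 RPKM in the same order of libraries. S100a4 was the 1 marker counted as higher in each genotype as deposited, so the sums do not describe the other markers. The part of the fibroblast markers in the differences of the 8 genes was not tested. The direction of the background depended on scaling. Of the genes called, 29.02% were higher in null cells and 26.4% in wild-type cells as deposited. Those shares were 49.6% and 52.8% after centring on the median gene, 46.5% and 43.9% after scaling to the 75th percentile, and 47.2% and 47.9% with the length trend removed. Under each of these 3 settings 3 of the 8 genes were lower and 1, Sparc, was higher in null cells. Without the length trend, 6 were lower in wild-type cells. The shares of all genes were then 21.7% lower and 19.4% higher in null cells, and 16.4% lower and 15.1% higher in wild-type cells.

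**Figure D2:**
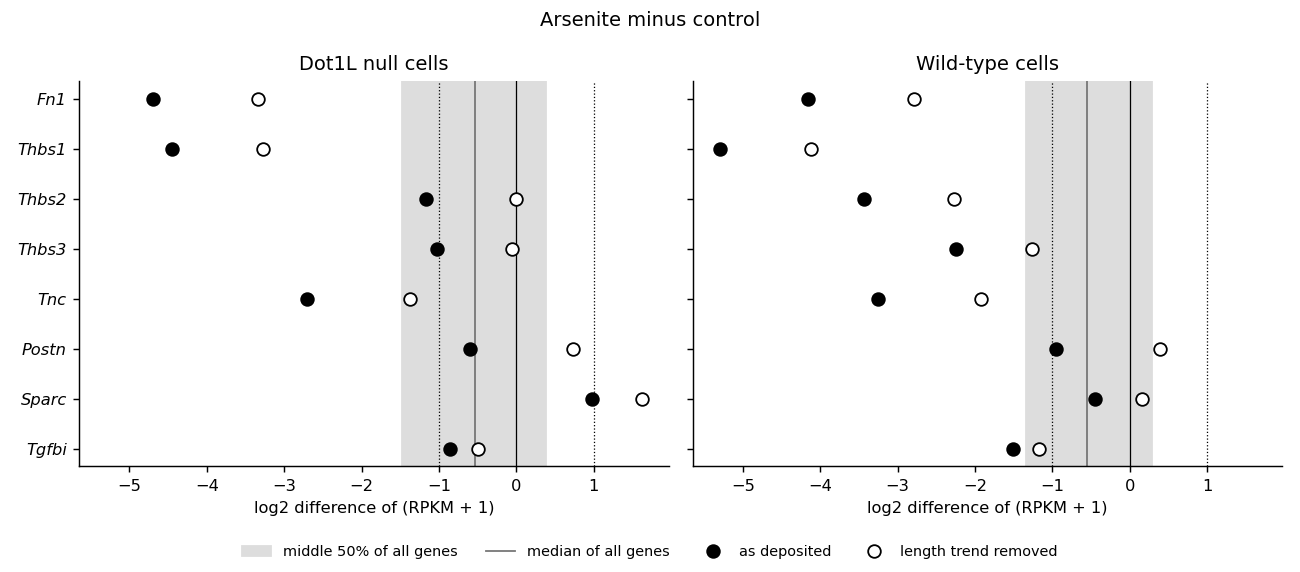
Log2 difference of (RPKM + 1), arsenite minus control, for each gene in Dot1L null cells (left) and wild-type cells (right), as deposited (filled) and with the trend on gene length removed (open). The grey band holds the middle 50% of all genes, the grey line is their median and dotted lines mark 2-fold; Fn1 and Thbs1 lie at −4.69 and −4.45 in null cells and at −4.16 and −5.30 in wild-type cells.

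Fn1 (ENSMUSG00000026193, chromosome 1, 71585473 to 71653280 in GRCm38.p6) encodes fibronectin. It had an RPKM of 53.6 in the null arsenite library and 1411 in the null control, and 30.7 in the wild-type arsenite library and 565 in the wild-type control. The controls were far above the arsenite libraries in both genotypes. By reads these levels were 5293 and 758576 in null cells and 2765 and 295870 in wild-type cells. Fn1 stood at rank 1080 of all genes by RPKM in the null arsenite library and at rank 21 in the null control, and at rank 1916 and rank 58 in the wild-type pair. It took 0.0446% of all reads in the null arsenite library and 1.17% in the null control. With arsenite it was 26.3-fold lower (counting interval 25.6 to 27.04) in null cells and 18.4-fold lower (17.7 to 19.1) in wild-type cells. Its log2 difference stood at rank 15 from the most negative in null cells and at rank 12 in wild-type cells, among the 12588 genes compared. Fn1 is long, at 8312 bases as recovered, and its log2 difference with the length trend removed was −3.34 in null cells and −2.79 in wild-type cells.

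The thrombospondins are secreted multimers, of which thrombospondin 1 activates latent TGF-beta and both thrombospondin 1 and 2 inhibit the growth of blood vessels. Thbs1 (ENSMUSG00000040152, chromosome 2, 118111876 to 118127133) had an RPKM of 4.49 in the null arsenite library and 119 in the null control, and 10.7 in the wild-type arsenite library and 458 in the wild-type control. It was 26.5-fold lower with arsenite (23.8 to 29.6) in null cells and 43.0-fold lower (39.9 to 46.4) in wild-type cells. Its log2 difference was −4.45 in null cells and −5.30 in wild-type cells, or −3.27 and −4.13 with the length trend removed. As deposited, these differences stood at rank 26 from the most negative in null cells and at rank 1 in wild-type cells. Thbs2 (ENSMUSG00000023885, chromosome 17, 14665500 to 14694262) had an RPKM of 11.4 and 26.8 in the null pair, arsenite before control, and 1.64 and 27.4 in the wild-type pair. The controls of both genotypes were close, so the 2 arsenite libraries were where Thbs2 differed most. It was 2.35-fold lower with arsenite (2.19 to 2.53) in null cells and 16.7-fold lower (13.8 to 20.5) in wild-type cells. Without the length trend its log2 difference was −0.0047 in null cells, at the trend, and −2.27 in wild-type cells. Thbs3 (ENSMUSG00000028047, chromosome 3, 89215180 to 89226841) had an RPKM of 3.04 and 7.21 in the null pair and 4.13 and 23.4 in the wild-type pair. It was 2.38-fold lower with arsenite (2.04 to 2.79) in null cells and 5.65-fold lower (4.94 to 6.50) in wild-type cells, with log2 differences of −0.062 and −1.27 once the length trend was removed. The balance of Thbs1 and Thbs2 differed between libraries, with a ratio of their RPKM levels (Thbs1 over Thbs2) of 0.394 in the null arsenite library and 4.44 in the null control, and 6.51 in the wild-type arsenite library and 16.7 in the wild-type control.

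Tnc (ENSMUSG00000028364, chromosome 4, 63959785 to 64047015) encodes tenascin C, which binds fibronectin and weakens the hold of cells on it. It had an RPKM of 8.19 in the null arsenite library and 59.1 in the null control, and 10.8 in the wild-type arsenite library and 111 in the wild-type control. Both arsenite values lay under both controls. With arsenite Tnc was 7.22-fold lower (6.72 to 7.77) in null cells and 10.3-fold lower (9.67 to 11.04) in wild-type cells, with log2 differences of −1.37 and −1.92 after the length trend was removed. The annotated span of the noncoding gene 8030451A03Rik overlaps that of Tnc, and this gene had an RPKM of at most 0.226 in any library. Annotated noncoding genes also overlap Thbs3 (LOC115489723, over 1308 bases) and Postn (Gm31095, over 1410 bases). Neither of these was matched to an RPKM value here.

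Periostin and TGFBI are related proteins built from fasciclin domains, and both bind integrins. Tgfbi (ENSMUSG00000035493, chromosome 13, 56609586 to 56639359), named for its induction by TGF-beta, had an RPKM of 9.43 in the null arsenite library and 17.96 in the null control, and 0.517 in the wild-type arsenite library and 3.33 in the wild-type control. Both null libraries were above both wild-type libraries. The reads behind these values were 300, 3111, 15 and 561 in the same order. Tgfbi was 1.90-fold lower with arsenite (1.69 to 2.15) in null cells and 6.43-fold lower (3.87 to 11.6) in wild-type cells. At 2678 bases it is the shortest of the 8, and its log2 differences of −0.86 and −1.51 were −0.50 and −1.17 with the length trend removed. Postn (ENSMUSG00000027750, chromosome 3, 54359267 to 54391041) had 4 reads in the null arsenite library and 295 in the null control, and 2 reads in the wild-type arsenite library and 483 in the wild-type control. In RPKM these were 0.0430, 0.582, 0.0236 and 0.979. It was 13.5-fold lower with arsenite (5.23 to 50.03) in null cells and 41.5-fold lower (11.4 to 344) in wild-type cells as a ratio of RPKM, with intervals that are wide because few reads were counted. On the log2 scale the same differences were −0.60 and −0.95, and they were 0.74 and 0.39 with the length trend removed. For a gene this low, the (RPKM + 1) scale and the trend say little.

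Sparc (ENSMUSG00000018593, chromosome 11, 55394159 to 55420080) encodes a secreted collagen-binding glycoprotein, also called osteonectin. Its RPKM was 292 in the null arsenite library and 148 in the null control, and 145 in the wild-type arsenite library and 199.6 in the wild-type control. The null arsenite library was the highest of the 4, and the other 3 ran from 145 to 199.6. These levels rest on 11698, 32192, 5304 and 42321 reads. With arsenite Sparc was 1.98-fold higher (1.94 to 2.02) in null cells, just under the threshold on the log2 scale at 0.98, and 1.37-fold lower (1.33 to 1.41) in wild-type cells. The wild-type log2 difference of −0.45 turned to 0.10 after centring, 0.051 after scaling to the 75th percentile and 0.15 with the length trend removed, so its direction depended on scaling. In null cells it was 1.51 after centring and 1.63 with the length trend removed. Sparc (3367 bases) and Tgfbi are the shortest of the 8 genes, and the next, Thbs3, has 4823 bases.

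**Figure D3:**
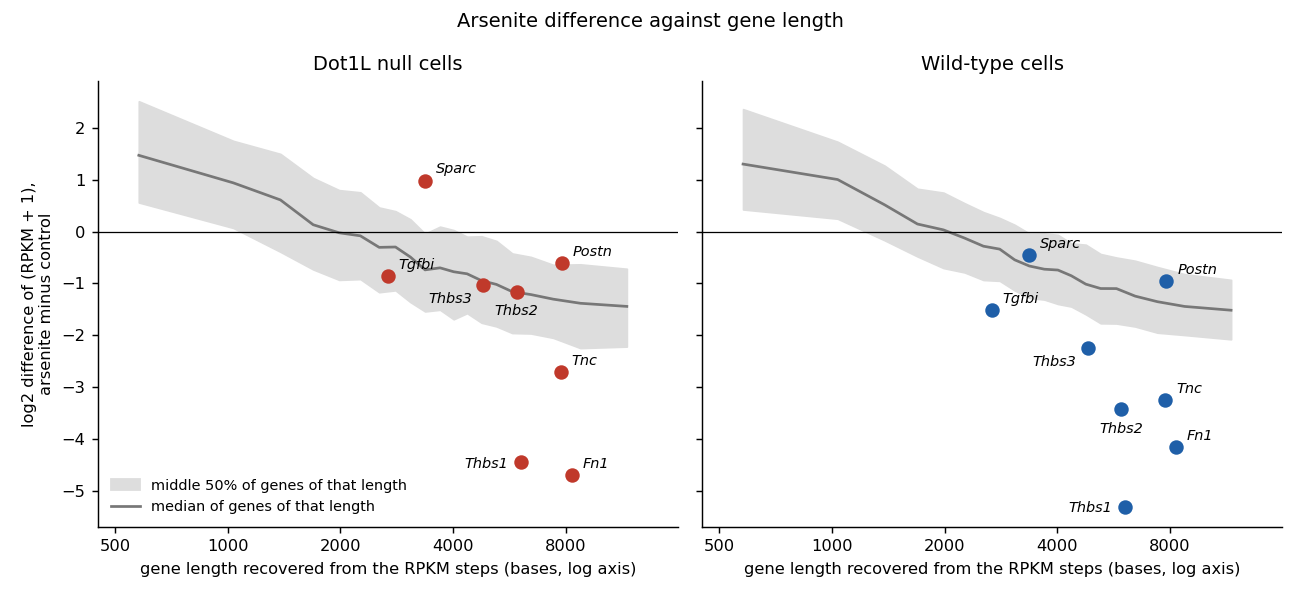
Log2 difference of (RPKM + 1), arsenite minus control, against gene length (log axis) for the 8 genes in Dot1L null (left) and wild-type cells (right), over the median and middle 50% of all genes in 20 length bins of 583 genes. Fn1, Thbs1 and Tnc lie under the band in both panels, Thbs2 and Thbs3 lie on its median in null cells and under the band in wild-type cells, and Sparc lies above the band in null cells.

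Null cells were then set against wild-type cells, first untreated. Fn1 and Tgfbi were higher in the null control and Thbs1 and Thbs3 lower, so 2 of the 8 genes were higher and 2 lower, where 6.45% of genes were higher and 14.7% lower. Of the genes called, 30.5% were higher as deposited, 43.9% after centring and 45.4% with the length trend removed, and the same counts of 2 and 2 held under these settings. Without the length trend, 9.13% of genes were higher and 11.0% lower. Tgfbi was 5.40-fold higher (4.93 to 5.92) in the null control and Fn1 2.50-fold higher (2.48 to 2.51). Thbs1 was 3.85-fold lower (3.81 to 3.89), Thbs3 3.24-fold lower (3.09 to 3.40) and Tnc 1.88-fold lower (1.85 to 1.91). The ratio of Thbs2 between these controls was 0.977 (0.951 to 1.004), an interval that includes 1. Sparc was 1.35-fold lower (1.33 to 1.37) and Postn 1.68-fold lower (1.45 to 1.95).

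Under arsenite, Tgfbi, Thbs2 and Sparc were higher in null cells and Thbs1 was lower: 3 of the 8 genes were higher, where 8.75% of genes were, and 1 was lower, where 16.9% were. Sparc was only just past the threshold, at 1.003 on the log2 scale. With a pseudocount of 5 it was at 0.984, and 2 of the 8 genes were higher, where 478 of all 12588 genes were. Of the genes called, 34.1% were higher as deposited, 57.1% after centring and 48.6% after scaling to the 75th percentile. Fn1 joined the higher genes and Thbs1 was no longer counted as lower after either of these, and with the length trend removed, where 12.5% of genes were higher and 8.92% lower. Tgfbi was 18.2-fold higher (10.9 to 33.0), resting on 15 reads in the wild-type arsenite library, Thbs2 6.97-fold higher (5.68 to 8.62), Sparc 2.01-fold higher (1.95 to 2.08) and Fn1 1.75-fold higher (1.67 to 1.83). Thbs1 was 2.37-fold lower (2.08 to 2.71), Thbs3 1.36-fold lower (1.11 to 1.67) and Tnc 1.32-fold lower (1.19 to 1.45). The ratio for Postn was 1.82 with an interval of 0.261 to 20.2. Among markers of other cell types, those of cartilage and bone (3 of 8 at an RPKM of 1 or more, Ibsp listed at 0 in all libraries) summed to 18.8 RPKM in the null arsenite library, 34.2 in the null control, 13.4 in the wild-type arsenite library and 38.0 in the wild-type control. The 3 differed in direction. Sox9 was higher in null cells, at 14.1 and 25.7 RPKM with arsenite and without, against 1.61 and 2.80 in wild-type cells. Col2a1 was lower in null cells, at 2.34 and 4.95 RPKM against 9.31 and 19.1, and Runx2 stood at 1.59 and 2.86 RPKM in null cells against 2.36 and 15.5 in wild-type cells. Markers of smooth muscle and myofibroblasts (3 of 6) summed to 1579, 101, 968 and 725 RPKM in the same order of libraries, mostly from Acta2. Markers of neural and glial cells (3 of 7) summed to 42.2, 45.0, 34.9 and 122 RPKM in that order. These 3, Sox2, Nes and Tubb3, were all lower in the null than in the wild-type control, where 14.7% of all genes were. Under arsenite 1 of them was lower in null cells, where 16.9% of all genes were. The part of any of these lists in the differences of Tgfbi, Thbs2 and Sparc was not tested.

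**Figure D4:**
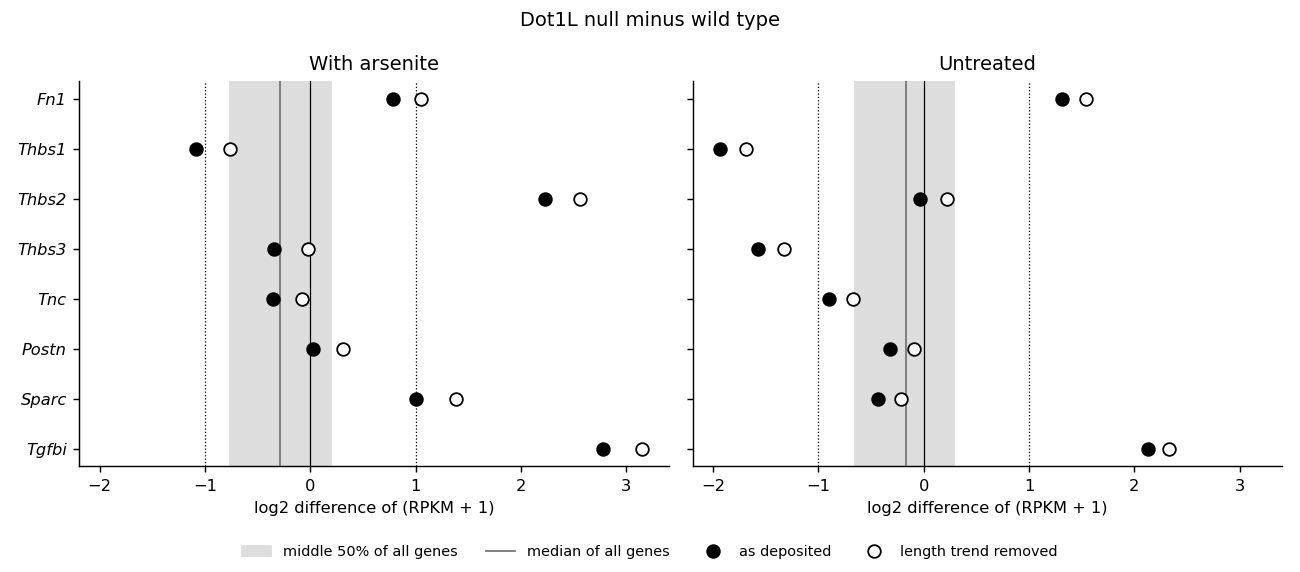
Log2 difference of (RPKM + 1), Dot1L null minus wild type, with arsenite (left) and untreated (right), drawn as in the plot of arsenite differences. Tgfbi is highest in both panels at 2.78 and 2.13, and Thbs2 lies at 2.23 with arsenite and −0.032 untreated.

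The wild-type arsenite difference was then subtracted from the null one. The result reached 1 on the log2 scale in 3 of the 8 genes, Thbs2, Sparc and Thbs3, and −1 in none, where 12.1% and 12.8% of genes were past these bounds. Without the length trend it was again 3 and none, where 12.5% and 10.8% of genes were. It was 2.27 for Thbs2, a ratio of ratios of 7.13 (5.81 to 8.75), 1.43 for Sparc, a ratio of 2.72 (2.62 to 2.81), and 1.22 for Thbs3, a ratio of 2.38 (1.94 to 2.92). It was 0.85 for Thbs1, a ratio of 1.62 (1.42 to 1.85), and 0.54 for Tnc, a ratio of 1.43 (1.30 to 1.58). For Tgfbi it was 0.65, a ratio of 3.38 (1.996 to 5.72). Fn1 was the single negative value at −0.53, a ratio of 0.700 (0.668 to 0.733). The log2 value of Tgfbi was 1.55 with a pseudocount of 0.1 and −0.076 with one of 5, so its direction on that scale depended on that choice. The ratio of ratios has no pseudocount, and for Tgfbi it rests on 15 reads in the wild-type arsenite library. These differences hold the same 4 libraries as the comparisons above and add no measurement to them.

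Over the 4 libraries, the genes whose pattern was most like that of Fn1 were Hif1a, Ahnak, Crkl, Maml1 and Grem1. Likeness was the distance between profiles of log2(RPKM + 1), each centred on its mean over the 4 libraries, and ran from 0.784 for Hif1a to 0.981 for Grem1. The search covered 11239 other genes with a symbol that passed the minimum, leaving out symbols of predicted genes, pseudogenes and small RNAs. Those nearest to Thbs1 were Dag1 (0.881), Col12a1 (1.19) and Alg10b (1.21). The nearest to Sparc were B9d1os (0.062), Maml2 (0.122) and Cirbp (0.124). B9d1os is an opposite-strand transcript, at 1.499 RPKM in the null arsenite library and 0.321 in the null control, and 0.274 and 0.683 in the wild-type pair. Adding 1 to values this low flattens their differences, so its small distance does not mean fold changes like those of Sparc. Without a stated strand setting the reads of B9d1os cannot be told from those of its partner. Among the 8 genes themselves, Tnc was the nearest to both Fn1 (2.28) and Thbs1 (2.09), farther than the genes above, and Thbs2 and Tgfbi were each other's nearest (1.93).

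Other members of the same protein families were mostly silent. Thbs4 and Comp, the remaining thrombospondins, had an RPKM of at most 0.0256 and 0.203 in any library. Of the other tenascins Tnxb reached 0.558, Tnn 0.426 and Tnr 0.0395. In the SPARC family 2 of 7 genes reached an RPKM of 1, Fstl1 and Smoc1. Fstl1, which encodes a secreted follistatin-like protein, had an RPKM of 191 in the null arsenite library and 88.2 in the null control, and 59.9 in the wild-type arsenite library and 118 in the wild-type control. The null arsenite library was the highest of the 4, as it was for Sparc. Its log2 difference with arsenite was 1.10 in null cells and −0.97 in wild-type cells, or 2.09 and 0.026 with the length trend removed. Smoc1 had log2 differences of 0.027 in null cells and −0.68 in wild-type cells, or 0.71 and −0.036 with the length trend removed, all under the threshold of 1.

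Receptors of these proteins were lower with arsenite in 5 of 11 cases and higher in 1 in null cells, where 37.1% of all genes were lower and 15.2% higher. In wild-type cells 7 of 11 were lower and none higher, where 35.7% and 12.8% of all genes were. After removal of the length trend these counts were 1 lower and 3 higher in null cells (21.7% and 19.4% of all genes) and 2 lower and 1 higher in wild-type cells (16.4% and 15.1%). Lrp1, a scavenging receptor that takes up thrombospondins, had an RPKM of 8.52 in the null arsenite library and 122 in the null control, and 9.68 in the wild-type arsenite library and 95.4 in the wild-type control. Its log2 differences of −3.69 and −3.17 were −2.05 and −1.51 without the trend. Itgav, the alpha V integrin subunit, had log2 differences of −2.02 in null cells and −2.46 in wild-type cells, or −0.59 and −0.99 without the trend. Sdc4, a proteoglycan that acts as a fibronectin co-receptor, was higher with arsenite in null cells at 163 RPKM, against 55.8 in the null control, and stood at 73.2 and 61.7 in the wild-type pair. Its log2 difference in null cells was 1.53, or 1.83 without the trend. Itga5 and Itgb1, the subunits of the main fibronectin receptor, were added for that role after their values were seen. Itga5 had 27.9 RPKM in the null arsenite library and 26.1 in the null control, and 19.3 and 45.3 in the wild-type pair. Its log2 differences of 0.095 in null cells and −1.19 in wild-type cells were 0.96 and −0.32 without the trend. Itgb1 had 96.0 and 211 RPKM in the null pair and 109 and 214 in the wild-type pair. For Itgb1 the log2 differences of −1.13 and −0.98 were −0.32 and −0.19 without the trend.

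All 16 genes listed for TGF-beta ligands, receptors, SMADs and latency proteins passed the minimum. With arsenite 10 were lower and 1 higher in null cells, where 37.1% of all genes were lower and 15.2% higher, and 11 were lower and none higher in wild-type cells, where 35.7% and 12.8% were. Without the length trend, 6 lay below and 1 lay above the threshold in null cells (21.7% and 19.4% of all genes), and 8 below and 1 above in wild-type cells (16.4% and 15.1%). The 1 higher in null cells was Tgfb3, a ligand, at 1.12 on the log2 scale or 1.78 without the trend. Tgfbr2, the type II receptor, had an RPKM of 4.57 in the null arsenite library and 34.2 in the null control, and 3.63 in the wild-type arsenite library and 32.8 in the wild-type control. Its log2 differences were −2.66 in null cells and −2.87 in wild-type cells, or −1.70 and −1.90 without the trend. In null cells Tgfbr1, the type I receptor, was at −3.40 (−2.17 without the trend) and Smad2, a receptor-activated SMAD, at −3.18 (−2.48). In wild-type cells Smad4, the shared SMAD, was at −2.67 (−1.97) and Ltbp1, a latency protein, at −2.56 (−1.11). Of 9 targets of TGF-beta outside the 8 genes, 2 were lower with arsenite and 2 higher in null cells, and 5 were lower and 1 higher in wild-type cells, beside the same shares of all genes. The balance turned in null cells once length was removed, with 1 lower and 4 higher, and in wild-type cells 3 were then lower and 2 higher. Lox, a collagen cross-linking enzyme, was lower in both genotypes, with log2 differences of −2.38 in null cells and −3.18 in wild-type cells, or −1.42 and −2.21 without the trend. Acta2, smooth muscle actin, had the largest difference among these targets in null cells, at 4.03, or 3.87 without the trend. Tagln, which encodes an actin-binding protein of smooth muscle, was higher in both, at 248 RPKM in the null arsenite library and 20.03 in the null control, and at 9.72 and 2.80 in the wild-type pair. Its log2 differences were 3.57 in null cells and 1.49 in wild-type cells, or 3.24 and 1.15 without the trend.

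Focal adhesion proteins, which link integrins to actin, were lower with arsenite in 7 of 12 cases and higher in 1 in null cells, where 37.1% of all genes were lower and 15.2% higher. In wild-type cells 10 of 12 were lower and none higher, where 35.7% and 12.8% of all genes were. Once that trend was removed, 2 counted as lower and 3 were higher in null cells (21.7% and 19.4% of all genes) and 4 lower and 1 higher in wild-type cells (16.4% and 15.1%). In null cells Lims1, an adaptor that binds integrin-linked kinase, was at −2.97 on the log2 scale (−1.99 without the trend). Ilk, that kinase itself, was higher in null cells at 102 RPKM with arsenite, against 21.9 in the control, a log2 difference of 2.17 (2.56). In wild-type cells Vcl, which encodes vinculin, was at −3.02 (−1.97). Of 5 CCN genes, a further matricellular family, 2 were lower and 1 higher in null cells and 3 were lower and none higher in wild-type cells, beside the same shares of all genes. Once length was accounted for, 1 CCN gene was lower and 1 higher in null cells and 4 were lower in wild-type cells. Ccn4 was lower in both genotypes, with log2 differences of −3.55 in null cells and −3.01 in wild-type cells, or −2.46 and −1.91 without the trend. Ccn5 was higher in null cells at 1.61, or 1.57 without the trend. The medians of these lists in null and wild-type cells were −0.85 and −1.21 for receptors, −1.65 and −1.88 for TGF-beta signalling, −0.18 and −1.07 for TGF-beta targets, −1.04 and −1.81 for focal adhesion proteins and −0.93 and −1.56 for CCN genes.

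**Figure D5:**
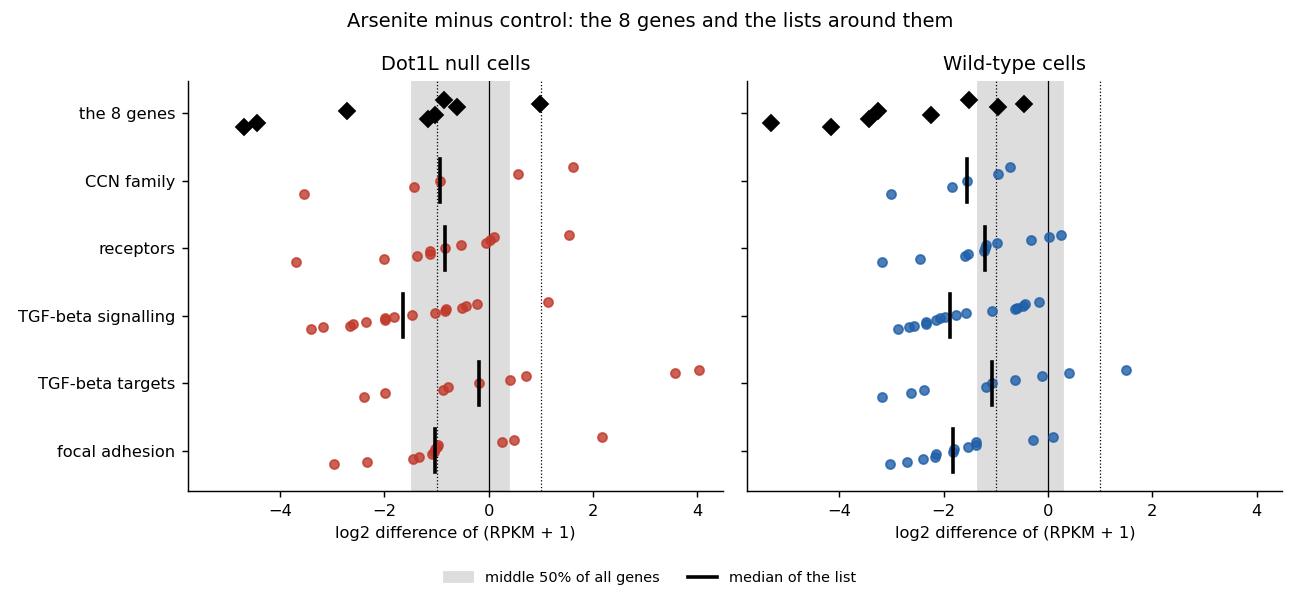
Log2 difference of (RPKM + 1), arsenite minus control, for the 8 genes (diamonds) and for each gene past the minimum in 5 lists (circles) in Dot1L null (left) and wild-type cells (right), with the median of each list as a bar and the middle 50% of all genes in grey. The lowest of the 8 genes lie beyond every circle in both panels, at −4.69 in null cells and −5.30 in wild-type cells.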

How the data were processed

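Libraries were paired-end, strand-specific and depleted of rRNA by Ribo-zero, per the labels' protocols, whereas the molecule label reads polyA RNA. TopHat, HTSeq, Bowtie and deepTools are named with the build mm10 in the submitters' processing notes. Of their versions, the annotation and the strand setting, nothing is said in the sources used here. The authors deposited RPKM values per Ensembl gene and library, with 35449 of 37224 IDs matched to a symbol here. Gene positions are from RefSeq (GRCm38.p6).

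Reads were recovered from the RPKM steps. The divisor of each library was the commonest value of a gene with 1 read among small RNAs of known span, and a gene's length was the shortest that made all its values whole within a relative tolerance of 1e-11. A length was found for 21615 of 21617 genes above 0, and a length may be understated by an integer factor. The steps were tested on simulated data. Recovered reads gave depth, length and exact intervals, never a count model.

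Differences are log2 of (RPKM + 1) ratios over 12588 genes (RPKM of 1 or more in some library), called at 2-fold. Fold changes are ratios of RPKM with exact conditional (Clopper-Pearson) 95% intervals on reads, and the ratio of ratios has a normal interval on the log scale. The length trend was a lowess curve over 11660 genes with reads in all 4 libraries and at least 200 bases, fitted with statsmodels 0.14.6. No p-value was computed. All 8 genes are named, and from each list only genes among the 3 with the largest absolute differences in a comparison described. Itga5, Itgb1, Tgfb3, both SPARC family genes, silent family members and the markers are named beside these, chosen after their values were seen. The genes, lists and rules were chosen with earlier results of these data known. Alternatives were 2 scalings, 2 pseudocounts, 2 filters, the length trend and a 4-fold threshold.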

Additional observations from a re-analysis of the deposited data

Results flagged for a closer look

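Sparc was picked out because its arsenite difference had opposite directions in the 2 genotypes, each with 1 library per group. Its log2 difference of (RPKM + 1) was 0.98 in null cells and −0.45 in wild-type cells. Put the other way, from the same 4 libraries, it was 1.003 for null against wild type under arsenite and −0.43 untreated. The difference between genotypes was not tested. The opposite direction in wild-type cells did not hold after centring, after scaling to the 75th percentile or with the length trend removed, where the wild-type value was 0.10, 0.051 and 0.15. RNAs without a poly(A) tail and gene length moved with arsenite in both genotypes, and their part in the values of Sparc was not tested.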

How the results depend on the processing

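No called value of any of the 8 genes changed sign under any alternative. TPM rescales all RPKM values of a library by the same factor, so it cannot change the order of levels within a library. After centring on the median gene, after scaling to the 75th percentile and with the length trend removed, the counts in null cells with arsenite became 3 lower and 1 higher, in place of 5 and 0, and the count lower in null cells under arsenite became 0 in place of 1. The change of centre or trend itself moves these counts. With a pseudocount of 5, 3 of the 8 genes were lower with arsenite in null cells, where 2577 of all 12588 genes were. Between genotypes under arsenite 0 were then lower in null cells, where 754 of all genes were. All genes past the threshold then numbered 3732 (null) and 3380 (wild type) with arsenite, 1232 (arsenite) and 1038 (untreated) between genotypes and 1346 for the difference of effects, in place of 6574, 6104, 3232, 2664 and 3134. With a pseudocount of 0.1 the count between genotypes under arsenite was 5165. With the length trend removed 3830 genes were past the threshold with arsenite in wild-type cells. At 4-fold the 5 counts of all genes were 2557, 1822, 579, 568 and 456, in the same order. At 4-fold 3 of the 8 genes were lower with arsenite in null cells, where 1900 of all 12588 genes were. In the null control 1 was higher and 0 lower, where 207 and 361 of all genes were. Under arsenite 0 were lower in null cells, where 276 of all genes were. A higher difference of effects was left in 1, and in 265 of all genes. The other counts over the 8 genes and over all genes stayed within 1.5 times under these settings and under both filters. No paired analysis was possible because each group has 1 library, and for the same reason no library could be left out. Depth limits Postn, with 2 and 4 reads in the arsenite libraries, and Tgfbi, with 15 reads in the wild-type one.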

Other observations

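Between genotypes, the families around the 8 genes differed too. Of 5 CCN genes 4 were lower and 1 higher in the null control than in the wild-type control, where 14.7% of all genes were lower and 6.45% higher. Ccn2, which encodes connective tissue growth factor, had an RPKM of 7.91 in the null arsenite library and 23.0 in the null control, and 60.4 in the wild-type arsenite library and 180.3 in the wild-type control. Both null libraries were under both wild-type libraries. Ccn5 went the other way, at 81.5 and 26.1 RPKM in the null pair and 4.89 and 10.5 in the wild-type pair. Under arsenite 2 CCN genes were lower and 1 higher in null cells, where 16.9% of all genes were lower and 8.75% higher. With the length trend removed the CCN counts were 3 lower and 1 higher untreated (11.0% and 9.13% of all genes). Under arsenite they were then 2 lower and 1 higher (8.92% and 12.5%).

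Targets of TGF-beta outside the 8 genes were split. In the null control 3 of 9 were lower and 3 higher than in the wild-type control, beside 14.7% and 6.45% of all genes, with Acta2 and Pmepa1 at log2 differences of −3.15 each and Tagln at 2.47. Acta2, smooth muscle actin, had an RPKM of 1328 in the null arsenite library and 80.5 in the null control, and 956 in the wild-type arsenite library and 721 in the wild-type control, so the null control stood apart from the other 3 libraries. Under arsenite 3 were higher in null cells, Tagln, Lox and Col1a2, and 1 was lower, beside 8.75% and 16.9% of all genes. Of the TGF-beta ligands, receptors, SMADs and latency genes, 4 of 16 were lower and 2 higher in null cells in each of these comparisons, beside the same shares of all genes, with Tgfb1 at −1.75 and Ltbp2 at 2.46 untreated. Without the length trend these counts were 4 lower and 3 higher untreated (11.0% and 9.13% of all genes), and 2 lower and 5 higher under arsenite (8.92% and 12.5%).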
